A study of Mus musculus with 2 samples.

Results

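The transcripts examined are those of 10 mouse genes of the NF-kB system: the subunit genes Nfkb1, Nfkb2, Rel, Rela and Relb, the inhibitor genes Nfkbia, Nfkbib and Nfkbie, the nuclear inhibitor-like gene Nfkbiz, and Tnfaip3. They were taken as all non-control probes whose gene name on the array was 1 of these 10, which gave 20 of 56605 probes, and 10 of 37074 gene names. Nfkb1, Relb and Nfkbiz had 3 probes each, Nfkb2, Rel, Rela and Nfkbib had 2 each, and Nfkbia, Nfkbie and Tnfaip3 had 1 each. Of the 20 probes, 19 were well above background on both arrays and 1, the dimmest of Nfkbiz, was on neither.

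The RNA was that of peritoneal macrophages of MeXis null mice and of WT mice, both given as bl6 in strain. MeXis is a long noncoding RNA gene, and the series concerns its part in macrophage cholesterol efflux. For each genotype RNA of 3 samples was pooled and read on 1 Agilent array with 62976 features and 1 dye, and the medium was DMEM with 10% serum and 1% P/S for both. No stimulus of the NF-kB system is named in the labels, and the age and sex of the mice, the extent of the MeXis deletion and how the cells were collected are not given in the sources used here.

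A single array per genotype leaves no replicate check and allows no p-value, so each difference given compares these 2 arrays and nothing more. A difference is the log2 signal on MeXis null less that on WT, with each array scaled to its own 75th percentile. The position of 0 rests on that scaling: spike-in control spots moved all differences by -0.15 when the median of their spot differences was set to 0, and by -0.72 when each array's own spike-in median was. Signs of small differences are therefore relative to the percentile. The scanner software gave an error for each signal, and 1.96 times that error is called the scanner limit here. A wider measure came from 285 probes printed at least 5 times on each array, whose spots differed in their array-to-array difference with a median SD of 0.47. Of these, 270 had a signal of 2000 and over (geometric mean of the arrays) and only 4 were under 200, so dim probes are little covered. The resulting limit, called the spot limit here, was 0.91, or 1.88-fold, and 15.1% of the 15473 measured genes (those above background on both arrays) lay beyond it. Part of this spread followed position on the array surface. Subtracting the median difference of the 100 nearest spots, called local surface correction, lowered the SD to 0.33 and the limit to 0.64.

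NF-kB is a family of dimeric transcription factors. In resting cells the dimers are held in the cytoplasm by inhibitor proteins (IkB). Signals from Toll-like receptors, the TNF receptor or the IL-1 receptor activate the IkB kinase complex, which marks IkB for degradation and releases the dimers to the nucleus. In macrophages this switches on cytokines and chemokines, and also several of the inhibitors, so that the response limits itself. Tnfaip3 encodes A20, a ubiquitin-editing enzyme that is among the induced inhibitors and acts upstream of the kinase complex.

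The probes that carry the main results are shown first, so that each value can be tied to the stretch of transcript it reads. The Tnfaip3 probe (A_55_P2053838, chromosome 10, 18720776 to 18720835, minus strand, mm9) starts at base 4302 of the listed transcript. The Nfkbia probe (A_51_P295192, chromosome 12, 56590945 to 56591440, minus strand) covers 496 bases of genome with 60 bases of sequence and therefore crosses a splice junction. The brighter Nfkb2 probe (A_55_P2723699, chromosome 19, 46386440 to 46386499, plus strand) and the dimmer one (A_51_P454217, 46386146 to 46386285, across a junction) start 214 bases apart in the same transcript. For Rela the brighter probe (A_55_P1974288, chromosome 19, 5648070 to 5648129, plus strand) and the dimmer one (A_55_P2744639, 5645363 to 5645529, across a junction) start 1388 bases apart. Probes across a junction are printed whole and the others as 30 of their 60 bases, and capitals mark AATAAA, the usual polyadenylation signal.
Tnfaip3, bases 1 to 30: gtgaaatttgcacagttgtctttcaaagga
Nfkbia, whole: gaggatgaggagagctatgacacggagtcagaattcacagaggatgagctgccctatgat
Nfkb2 brighter, bases 25 to 54: acatctcggtgggtcaAATAAAggggaaga
Nfkb2 dimmer, whole: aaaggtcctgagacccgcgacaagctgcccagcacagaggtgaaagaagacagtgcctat
Rela brighter, bases 25 to 54: tttctagctctgaactAATAAAtgtcttat
Rela dimmer, whole: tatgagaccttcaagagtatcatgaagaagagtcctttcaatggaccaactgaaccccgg

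Among the 10 genes, Tnfaip3 stood furthest from 0. Its transcript was 3.29-fold lower on the MeXis null array, while none of the other 9 genes reached 2-fold by its brightest probe. The transcripts of the common dimer of resting macrophages, p50 (Nfkb1) and p65 (Rela), and of its main inhibitor Nfkbia all lay within 1.5-fold by brightest probe. By brightest probe, 1 of 10 genes was at least 1.5-fold higher, beside 19.3% of all genes, and 2 were at least 1.5-fold lower, beside 13.8% of all genes. At 2-fold the counts were 0 higher, beside 7.68% of all genes, and 1 lower, beside 4.56%. The median of the 10 genes was 0.10, and that of all genes 0.05. After local surface correction 0 were at least 1.5-fold higher (11.8% of all genes) and 1 was at least 1.5-fold lower (13.1%), with a median of -0.06 beside -0.04 over all genes. At 2-fold after that correction 0 were higher (3.63% of all genes) and 1 was lower (3.44%). With each array's own spike-in median set to 0, the counts at 1.5-fold were 0 higher, beside 3.48% of all genes, and 6 lower, beside 55.3%. The median was then -0.61, and that of all genes -0.66. Counts of 1 or 2 in 10 are near the shares over all genes, and nothing particular to the 10 is read from them. In bulk RNA, fewer cells of a type and less RNA per cell cannot be told apart.

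**Figure D1:**
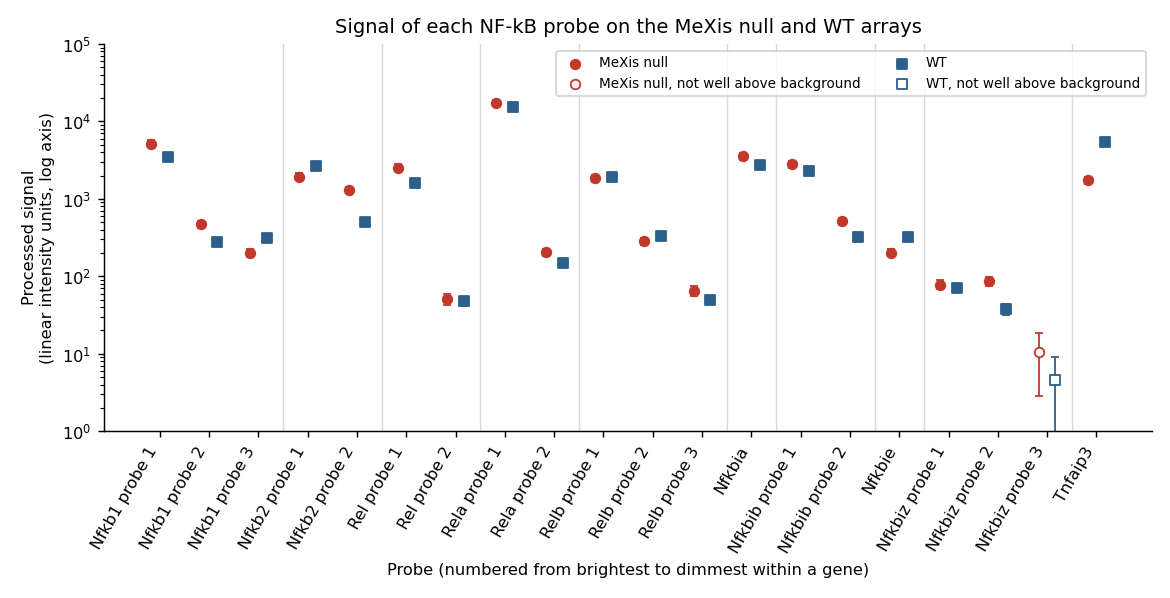
Processed signal (linear intensity units, log axis) of the 20 NF-kB probes on the MeXis null array (circles) and the WT array (squares), with the scanner's error as bars and open symbols where a signal was not well above background. Tnfaip3, at 1732 on MeXis null and 5417 on WT, has the widest gap with WT on top, and the lower bar of the WT signal of Nfkbiz probe 3 runs off the axis because its error exceeds the signal.

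Tnfaip3 had a signal of 1732 ± 173 (scanner error) on the MeXis null array and 5417 ± 542 on the WT array. The difference of -1.72 exceeded both the scanner limit of 0.40 and the spot limit of 0.91. Only 0.743% of all genes had a difference as low or lower. Before any background subtraction the spot read 1881 on MeXis null and 4856 on WT, over local backgrounds of 22 on MeXis null and 19 on WT. The 100 nearest spots had a median difference of -0.43. Taking that away left Tnfaip3 at -1.28, or 2.44-fold lower, still beyond the corrected limit of 0.64. Over all 10 alternatives for single probes it ran from -2.44 to -1.28. A single probe read this gene, so no other probe could be set beside it.

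**Figure D2:**
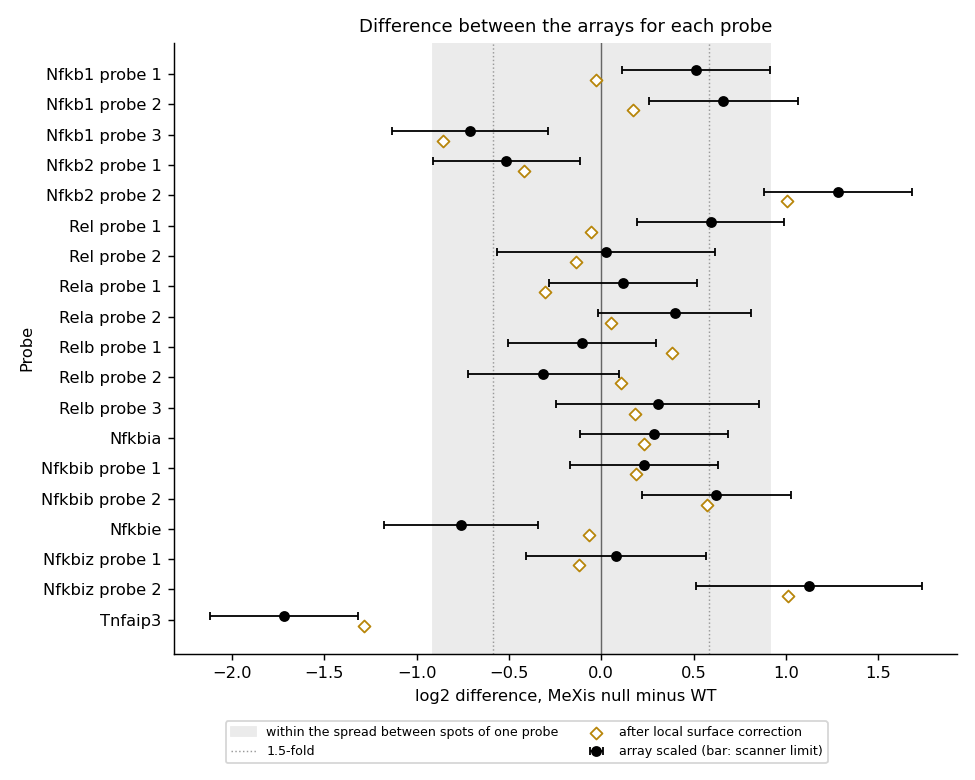
The log2 difference (MeXis null minus WT) of the 19 NF-kB probes above background, with the scanner limit as bars, the spot limit in grey and the values after local surface correction as open diamonds. Tnfaip3 at -1.72 lies beyond the grey band on the low side, and the dimmer probes of Nfkb2 (1.28) and Nfkbiz (1.13) lie beyond it on the high side.

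The subunits that carry a transactivation domain are Rela (p65), Rel (c-Rel) and Relb. Rela, the brightest probe among the members, read 17413 on MeXis null and 15221 on WT, a difference of 0.12 that was inside the scanner limit. Its dimmer probe read 205 on MeXis null and 148 on WT, a difference of 0.40 that was also inside the scanner limit of 0.42. Rela was thus not separated between the arrays by either probe.

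Rel, the c-Rel subunit best known from lymphocytes and also used by macrophages, read 2535 on MeXis null and 1597 on WT by its brighter probe. This was the 1 gene counted as at least 1.5-fold higher, at 0.59, just past 1.5-fold and inside the spot limit. The brighter probe lies at 23637051 to 23637110 of chromosome 11 (mm9), in a region of the array where the 100 nearest spots had a median difference of 0.65, and it was at -0.05 after local surface correction. Its dimmer probe read 51.4 on MeXis null and 47.9 on WT, a difference of 0.03.

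Relb, the partner of p52 in the non-canonical pathway, read 1855 on MeXis null and 1894 on WT by its brightest probe, a difference of -0.10. The middle probe read 284 on MeXis null and 335 on WT (-0.31). The dimmest read 65.1 on MeXis null and 50.1 on WT (0.30). None of the 3 passed the scanner limit. After local surface correction the Relb differences were 0.38, 0.11 and 0.18 in the same order.

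Nfkb1 and Nfkb2 encode the precursors p105 and p100, which are processed to the DNA-binding subunits p50 and p52 and act as inhibitors while unprocessed. Each of these genes had probes of opposite sign. For Nfkb1 the brightest probe (A_55_P2745489) read 5172 on MeXis null and 3441 on WT, a difference of 0.51. The middle probe (A_55_P1968743) read 467 on MeXis null and 281 on WT, a difference of 0.66. The dimmest probe (A_52_P582969) read 202 on MeXis null and 314 on WT, a difference of -0.71. The 3 probes are listed to 3 different transcript records. All 3 passed the scanner limit and none the spot limit of 0.91. After local surface correction the brightest Nfkb1 probe was at -0.03 and the middle at 0.17, while the dimmest was at -0.85 and then beyond the corrected limit of 0.64.

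The Nfkb2 pair disagreed more widely although both probes lie near the 3′ end of the same transcript, as the sequences above show. The brighter probe read 1939 on MeXis null and 2628 on WT, a difference of -0.51. The dimmer probe, across a splice junction 214 bases upstream, read 1307 on MeXis null and 511 on WT, a difference of 1.28, or 2.43-fold higher. The gap of 1.79 between these differences was matched or exceeded in 6.73% of the 5202 genes with at least 2 probes above background. It remained after local surface correction, with the probes at -0.42 and 1.00, so no direction is given for Nfkb2. Disagreement of this kind was common on these arrays: probes of opposite sign were found in 54.6% of those 5202 genes and in 3 of the 7 NF-kB genes with at least 2 such probes.

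The classical inhibitors bind dimers in the cytoplasm. Nfkbia (IkB alpha), which is itself strongly induced by NF-kB, read 3532 on MeXis null and 2748 on WT, a difference of 0.29 inside its scanner limit of 0.40. Nfkbib (IkB beta) read 2809 on MeXis null and 2273 on WT by its brighter probe, a difference of 0.23. Its dimmer probe read 515 on MeXis null and 317 on WT, a difference of 0.62 that passed the scanner limit and not the spot limit. Nfkbia and the Nfkbib pair thus lay above 0, and they stayed above 0 after local surface correction, at 0.23, 0.19 and 0.57. With each array's own spike-in median set to 0 they lay below it, at -0.43, -0.48 and -0.09.

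Nfkbie (IkB epsilon), a more slowly induced inhibitor, read 202 on MeXis null and 325 on WT. Its difference of -0.76 was the second lowest of the 10 genes and passed the scanner limit but not the spot limit. The 100 spots nearest to it had a median difference of -0.69, and Nfkbie was at -0.06 after local surface correction.

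Nfkbiz (IkB zeta) is a nuclear protein, induced through Toll-like and IL-1 receptors, that works with p50 at a subset of inflammatory promoters. It was dim on both arrays. The brightest probe read 78.5 on MeXis null and 70.4 on WT, a difference of 0.08. A second probe, 1589 bases upstream in the same transcript, read 86.6 on MeXis null and 37.7 on WT, a difference of 1.13 that exceeded its scanner limit of 0.61 and the spot limit. The spot limit, however, came mostly from much brighter probes. With normexp, another background correction, this second probe was at 0.52. The third probe read 10.6 on MeXis null and 4.56 on WT, and no fold is given because both signals were too close to background.

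Counted by probe, 5 of 19 were at least 1.5-fold higher, beside 20.2% of all probes, and 3 were at least 1.5-fold lower, beside 13.5%. At 2-fold there were 2 higher, beside 8.03% of all probes, and 1 lower, beside 4.53%. The 2 higher were the dimmer Nfkb2 probe and the second Nfkbiz probe, and the lower was Tnfaip3. These 3 were also the ones beyond the spot limit. Levels of different genes are not ranked here, since signals of different probes are not comparable.

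**Figure D3:**
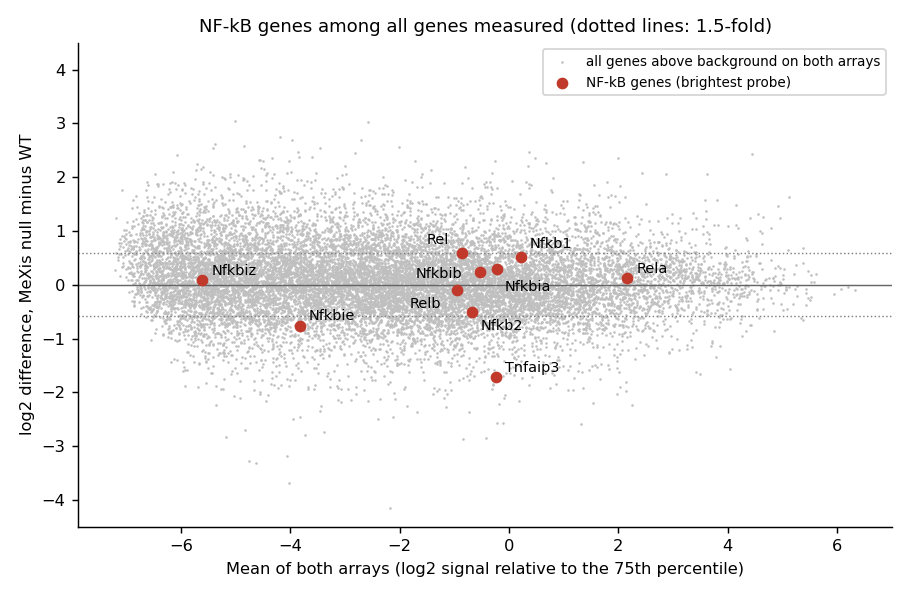
Difference between the arrays (log2, MeXis null minus WT) against mean level (log2 signal relative to the 75th percentile) for the 15473 genes above background on both arrays, with the 10 NF-kB genes marked by their brightest probe. Tnfaip3 at -1.72 lies in the lower tail of the cloud, with 0.743% of all genes as low or lower, and the other 9 genes lie between -0.76 (Nfkbie) and 0.59 (Rel).

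Around the 10 genes, the rest of the pathway was described from 4 lists. Of 25 kinases and adaptors that carry the signal to IkB, all were above background on both arrays. Past 1.5-fold there were 2 on the higher side and 3 on the lower, around a median of -0.12. These counts stand beside 19.3% and 13.8% of all genes, and with normexp 5 were on the lower side, beside 12.5% of all genes. In the IkB kinase complex the catalytic subunit Chuk was at 0.60, just past 1.5-fold, and at -0.46 after local surface correction. The other catalytic subunit, Ikbkb, was at 0.22, with probes of opposite sign, and at -0.17 after local surface correction. The regulatory subunit Ikbkg was at -0.04. The lowest of the list was Ikbke, an IkB kinase-related kinase that is induced in inflammation and phosphorylates interferon regulatory factors. Ikbke read 424 on MeXis null and 1443 on WT, a difference of -1.84, or -1.13 after local surface correction. Its relative Tbk1 was at 0.51, or 0.095 after local surface correction. The highest was Tab3, which links the kinase TAK1 to ubiquitin chains, with 574 on MeXis null and 256 on WT, a difference of 1.09. Tab2, a second such linker, was at -0.74, but its probes disagreed in sign. Map3k14, the NIK kinase of the non-canonical pathway, was at -0.71, with probes of opposite sign, and at 0.46 with normexp.

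Among 20 ubiquitin editors and partners of Tnfaip3, none passed 1.5-fold on the higher side and 3 did on the lower, around a median of -0.05. Of all genes, 19.3% did on the higher side and 13.8% on the lower. With normexp the balance was the opposite, 2 on the higher side and 1 on the lower, beside 16.5% and 12.5% of all genes. Tnip1, the adaptor that brings A20 to ubiquitin chains, read 15696 on MeXis null and 17807 on WT, a difference of -0.26 against the -1.72 of Tnfaip3. Fbxw11 and Btrc are paralogous receptors of the ubiquitin ligase that degrades IkB. Fbxw11 was at -1.10 (-0.46 with normexp) by its brightest probe and at -0.15 by its other probe above background. Btrc was at 0.58 (-0.13 after local surface correction) by its brightest probe and at 1.32 by its other probe above background. Rbck1, a subunit of the linear ubiquitin ligase, was at -0.79 (-0.28 with normexp), and N4bp1, a suppressor of NF-kB signalling, at -0.69 (-0.46 with normexp). Otulin, which removes linear chains, was at 0.56 (0.23 after local surface correction).

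Of 12 further IkB-like and nuclear regulators, 11 were above background on both arrays and 1 on MeXis null only. Past 1.5-fold there was 1 of the 11 on the higher side and 2 on the lower, around a median of 0.16. The shares of all genes were 19.3% and 13.8%. The atypical IkB genes pointed apart. Bcl3, which binds p50 and p52 dimers in the nucleus, read 1813 on MeXis null and 3170 on WT, a difference of -0.88. Nfkbid, also a nuclear IkB protein, read 3838 on MeXis null and 2097 on WT, a difference of 0.80 (0.39 after local surface correction). Both lay inside the spot limit of 0.91. After local surface correction Bcl3 was at -0.82, beyond the corrected limit of 0.64. Nkap was at -0.93, slightly beyond the spot limit, but at -0.62 after that correction, inside the corrected limit. Pdlim2, which promotes degradation of nuclear p65, was at 0.43 (0.66 after that correction).

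Among 29 NF-kB target genes, 20 were above background on both arrays. The remaining 9 were on neither: Il1b, Il6, Il12b, Cxcl2, Nos2, Ptgs2, Csf2, Ptx3 and Cd40, most of them genes of the activated macrophage. Past 1.5-fold there were 5 of the 20 on the higher side and 3 on the lower, around a median of 0.11, and these counts are near the 19.3% and 13.8% of all genes. The chemokine Cxcl1 read 498 on MeXis null and 123 on WT, a difference of 1.94. Ccl2, the monocyte chemokine, was at 1.27 and the adhesion molecule Vcam1 at 1.21. Marcks was at 0.83 (0.25 after local surface correction) and the phosphatase gene Dusp1 at 0.70 (0.04). On the lower side the cytokine Il1a read 79.2 on MeXis null and 166 on WT, a difference of -1.14. Tnfaip2 was at -0.89 (-0.27 after local surface correction), and the mitochondrial superoxide dismutase Sod2 was at -0.71. Tnf itself, at 135 on MeXis null and 138 on WT, differed by -0.11 by its brighter probe, and its other probe had the opposite sign. On this scale NF-kB targets were found on both sides of 0, as were the members that are themselves targets, Tnfaip3 on the lower side and Nfkbia slightly above 0.

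**Figure D4:**
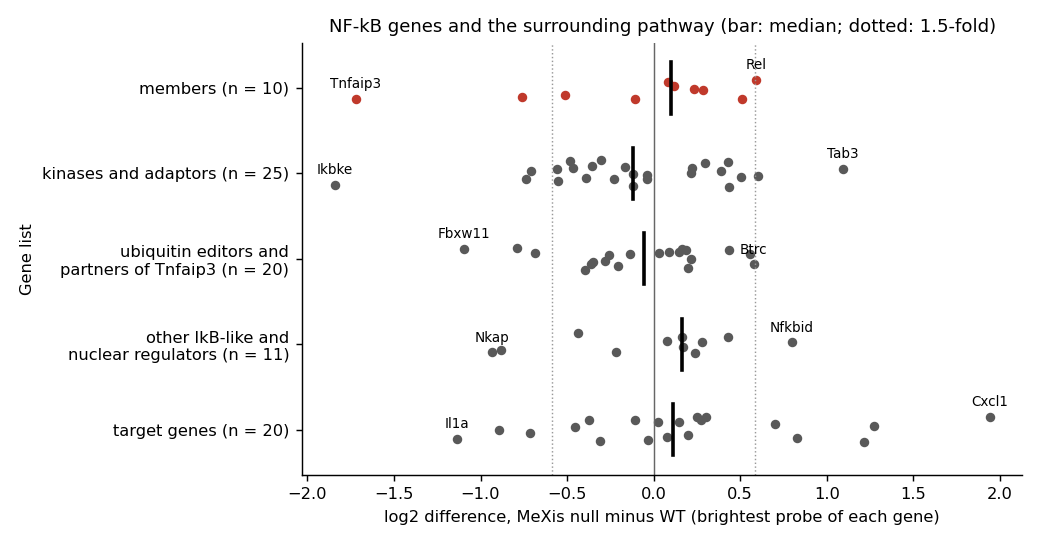
The log2 difference (MeXis null minus WT) of each gene by its brightest probe, for the 10 NF-kB genes and 4 lists of the surrounding pathway, with the list median as a bar and 1.5-fold as dotted lines. The medians lie between -0.12 and 0.16, and the genes furthest from 0 are Ikbke (-1.84), Tnfaip3 (-1.72) and Cxcl1 (1.94).

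The promoters of Tnfaip3 and Nfkbia are shown because both genes are known NF-kB targets, Tnfaip3 beyond both error limits and Nfkbia inside its scanner limit. The sequences are from RefSeq (GRCm38.p6) and run over the 250 bases before the annotated start, 5′ to 3′ on the strand of the gene. Capitals mark matches to the kappa-B consensus on either strand.
Tnfaip3, chr10:19015411-19015660, minus strand: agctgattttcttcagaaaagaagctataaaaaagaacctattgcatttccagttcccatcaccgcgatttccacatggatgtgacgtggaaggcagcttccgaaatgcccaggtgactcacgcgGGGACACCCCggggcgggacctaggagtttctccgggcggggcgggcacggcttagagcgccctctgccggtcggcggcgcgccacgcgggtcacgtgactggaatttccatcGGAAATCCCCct
Nfkbia, chr12:55492648-55492897, minus strand: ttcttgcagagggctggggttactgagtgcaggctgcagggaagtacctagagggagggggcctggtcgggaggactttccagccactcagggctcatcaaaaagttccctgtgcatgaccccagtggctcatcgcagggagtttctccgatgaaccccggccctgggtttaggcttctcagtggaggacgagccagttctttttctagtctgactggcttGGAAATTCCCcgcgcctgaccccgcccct

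Promoter windows were found for 7 of the 10 genes, 10 windows in all. The kappa-B consensus was matched in 7 of these 10 windows, and in 7.25% of all 32851 windows of this length. The 7 windows belong to 5 genes: Nfkb2 (with 3 of them), Nfkbia, Nfkbie, Rel and Tnfaip3. A second Tnfaip3 window, not shown, had no match. Windows of Nfkb2 overlap in part, so the windows are not independent units. In the Tnfaip3 window shown the matches begin 125 and 12 bases before the start, and in the Nfkbia window the match begins 29 bases before it. The differences of the 5 genes with a match ran from -1.72 (Tnfaip3) to 0.59 (Rel).

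**Figure D5:**
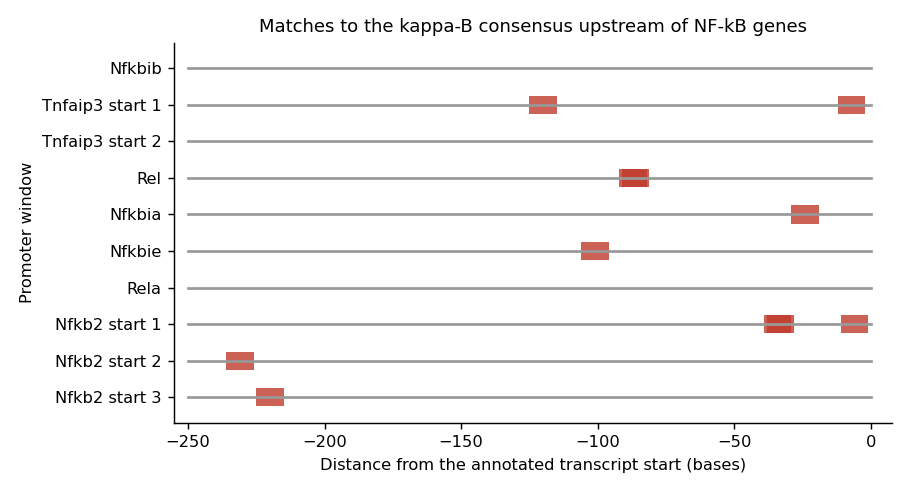
Position of kappa-B consensus matches (blocks of 10 bases) in the 250 bases before each annotated start of 7 NF-kB genes, with the distance from the start in bases on the horizontal axis. Tnfaip3, Nfkbia and Nfkb2 have matches within 40 bases of a start, and Nfkbib, Rela and the second Tnfaip3 start have none in the window.

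Markers of the labelled cell type and of others were read from the same arrays. All 10 macrophage markers, among them Adgre1, Cd68, Csf1r and Lyz2, were above background on both arrays. Their median difference was 0.39 (-0.02 after local surface correction), with 6 above 0 and a range from -1.95 (Mertk) to 1.25 (Lyz2). Mertk was at -1.16 after that correction. Csf1r was at -0.86 by its brighter probe (-0.82 after that correction) and at 0.16 by its other probe. Adgre1 and Cd68 also had probes of opposite sign. Lyz2 was at 0.52 after that correction, and its other probe was at 0.22 before it. Summed unscaled signals were 718858 on MeXis null and 541701 on WT. Much of that gap came from Lyz2 (179211 on MeXis null, 71553.5 on WT) and Cd68 (196155 on MeXis null, 115942 on WT). B cell markers, 8 of 11 above background on both arrays, all lay below 0 with a median of -0.66 and summed signals of 2920 on MeXis null and 4408 on WT. Of their defining genes, Cd79a and Ms4a1 were above background on both arrays, and Pax5 was above background on WT only. Fibroblast markers (9 of 10 above background on both, median 1.09, sums 25563 on MeXis null and 20705 on WT) and mesothelial markers (8 of 8, median 0.99, sums 2367 on MeXis null and 991 on WT) had medians on the higher side, although Col3a1 (-0.13) and Fn1 (-0.23) lay below 0 and Lum was above background on WT only. Eosinophil markers (1 of 8 on both arrays and 3 on WT only, sums 1660 on MeXis null and 4327 on WT) and neutrophil markers (4 of 9, median -0.53, sums 13184 on MeXis null and 20194 on WT) were mostly on the lower side, with the neutrophil gene Elane at 0.21. Epx, Prg2 and Ccr3 of the eosinophil list, and Ly6g, S100a9, Mpo and Camp of the neutrophil list, were above background on neither array. Most of the neutrophil sums came from Csf3r, at 11696 on MeXis null and 18755 on WT. T and NK cell markers (4 of 10, median -0.20, sums 1034 on MeXis null and 1105 on WT) and endothelial markers (3 of 7, median 0.32, sums 6012 on MeXis null and 5128 on WT) had few measured members. The part of these cells in the values of Tnfaip3 and the other NF-kB genes was not tested. The MeXis probe (A_66_P106525) read 8.44 on MeXis null and 12.3 on WT which is below the well-above-background mark on each array, so it could not check the labels.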

How the data were processed

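Per the file headers, the deposited intensity of each spot (linear scale) was made with Agilent Feature Extraction 11.5.1.1, which subtracted background, removed surface trends and gave an error per signal. Probe coordinates are on mm9. On both arrays the deposited series matrix held the same values as the processed signal for each of the 62976 features. Non-control spots well above background numbered 26257 (44.3%) on MeXis null and 28463 (48.0%) on WT, and the 75th percentile was therefore taken over spots well above background on both. Control spots and outlier spots (205 on MeXis null, 305 on WT) were left out, which removed no NF-kB probe, and no spot was saturated. Spots of 1 probe were averaged on the log2 scale, computed from the deposited signals. The brightest probe (mean log2 signal over the arrays) stood for a gene, which was counted by folds of 1.5 and 2. Members were matched by the array's gene name, and other probes by accession (32974), symbol (10223) or synonym (519) in a RefSeq table (GRCm38.p6), from which no coordinate was taken for probes, while 12889 probes, members included, kept the file's name.

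The members, lists, alternatives and the rule for named genes were chosen with earlier results of these data known. That rule took every member probe, in each pathway list the genes at least 2-fold apart and then the 2 highest and 2 lowest, and Bcl3, Nfkbid, Tnip1, Chuk, Ikbkb and Ikbkg. Tnf, the 9 undetected targets and the marker genes were named after their values were seen. Alternatives were normexp (limma 3.58.1, offset 50), quantile, loess (span 0.3), median, all-probe percentile and spike-in scaling, local surface correction, outlier spots kept, the series matrix values, other filters on dim probes and the median of a gene's probes. The spike-in definition was settled only after seeing the data: ERCC probes had 1 usable spot of 2772, each array's own E1A median was tried next, and the median of E1A spot differences replaced it once its output had been seen, so both E1A versions are given. The main scaling and the local surface correction were first tested on a copy of the WT array with known changes in 200 genes. The other alternatives were not tested in this way. The number of arrays limits the precision, and the closing section gives the effect of the scaling, the surface and the background.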

Additional observations from a re-analysis of the deposited data

How the results depend on the processing

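With 1 array per genotype, no paired analysis was possible and no replicate could be left out. The definition of spike-in scaling was changed after its results had been seen. ERCC probes, tried first, had 1 usable spot. Setting each array's own median E1A spike-in spot to 0, tried second and kept here as an alternative chosen after seeing the data, moved all values by -0.72: 3.48% of all genes were then at least 1.5-fold higher and 55.3% lower, and of the members none (0) passed 1.5-fold on the higher side, 6 passed it on the lower side, and 3 passed 2-fold there, beside 28% of all genes. The medians were then -0.66 for all genes, -0.61 for the members, -0.84 for kinases and adaptors, -0.77 for ubiquitin editors, -0.55 for other IkB-like regulators and -0.60 for targets. Of 19 member probes 11 changed sign, and of 76 pathway genes 32. Those that had been past 1.5-fold were the middle Nfkb1 probe (-0.055), the brighter Rel probe (-0.12), the dimmer Nfkbib probe (-0.093), Chuk (-0.11) and Dusp1 (-0.017). The definition that replaced it, the median difference of 267 E1A spots set to 0, gave the milder result: a shift of -0.15, 14.1% of all genes higher and 20.1% lower, 0 members past 1.5-fold on the higher side and 3 on the lower, and medians of -0.099 for all genes, -0.053 for the members, -0.28 for kinases and adaptors, -0.21 for ubiquitin editors, 0.00785 for other IkB-like regulators and -0.041 for targets. Which definition is nearer the truth was not tested.

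The count of members at least 1.5-fold higher was also 0 under quantile, loess, median and all-probe percentile scaling, where 15.9% to 16.9% of all genes were, and after local surface correction, where 1 was at least 1.5-fold lower. All-probe percentile scaling put 3 members on the lower side, beside 16.6% of all genes. All genes split 11.8% and 13.1% after that correction and 19.3% and 13.8% as reported. Local surface correction gave medians of -0.059 for the members, -0.26 for kinases and adaptors, -0.20 for ubiquitin editors and -0.033 for other IkB-like regulators. By the median of a gene's probes they were 0.078 for all genes, 0.30 for the members, 0.069 for kinases and adaptors, 0.061 for ubiquitin editors and 0.22 for targets, which were at 0.25 with no filter on dim probes, where all genes were at 0.47. Local surface correction changed the sign of 7 of 19 member probes and 16 of 76 pathway genes, among which the brighter Rel probe (-0.053) and Chuk (-0.46) had been past 1.5-fold, and normexp that of 0 and 6, with Map3k14 (0.46) past 1.5-fold before. The cause was not tested. Of 190 member probe values, 165 moved by less than the SD between spots of 1 probe. Much of this tally was fixed in advance, since the series matrix values equal the processed signals. Median, all-probe percentile and both spike-in scalings, and keeping outlier spots, each shift all member probes by 1 constant. The tally is therefore no measure of stability. Tnfaip3 was lower in all 10 single-probe alternatives, and the 1 member at least 2-fold lower in the other 12 for counts. These tallies are not independent checks (see above). Dim probes, such as those of Nfkbiz, are limited by signal over background.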
